A study of Mus musculus with 18 samples.

Results

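Heat shock proteins and molecular chaperones were examined in the mouse cerebellum after a single dose of the superoxide-generating herbicide paraquat, in mice without and with altered apolipoprotein D (ApoD), a lipid-binding lipocalin. The members were the genes on the array whose symbols start with Hsp, Dnaj, Cct plus a digit or Bag plus a digit, together with Cryab, Stip1, St13, Tcp1 and Hsf2. The endoplasmic reticulum (ER) proteins Hspa5, Hsp90b1, Hspa13, Dnajb9, Dnajb11 and Dnajc3 and the matrix proteoglycan Hspg2 were left out. The rule reads symbols only, but it was set with earlier results of these data known. This gave 75 of the 12393 genes on the array, of which 63 passed a filter on low values and were tested among 8320 genes. The set is mainly cytosolic, but a choice by symbol alone also takes in other proteins. Of the members, 8 were grouped as mitochondrial and 4 as ER membrane or lumenal proteins, and these are described apart. The grouping may miss others. Hsf1, Hsp90ab1 and Dnajc19 were not analysed here.

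Chaperones bind unfolded polypeptides and keep them from aggregating. HSP70 proteins do so in cycles of ATP hydrolysis, which J proteins (the Dnaj genes, also called HSP40) start and which exchange factors (the HSP110 and BAG families) end. HSP90 finishes the folding of kinases and steroid receptors that HSP70 hands over through Stip1, and the ring-shaped chaperonin TRiC folds actin and tubulin. Small heat shock proteins hold unfolded proteins without ATP. When unfolded proteins build up, for instance in heat, heat shock factor binds heat shock elements in the promoters of Hspa1a, Hspa1b, Dnajb1, Hsph1 and other genes and raises their transcription. In the brain, Hspa8 is the constitutive HSP70, and Cryab is best known from oligodendrocytes and astrocytes.

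Adult male mice of 3 genotypes, aged 80 ± 5 days, were compared: wild-type, ApoD knock-out and Human-ApoD transgenic gain of function mice, in which ApoD is over-expressed in neurons. The promoter that drives the transgene is not given in the sources used here. In each genotype 9 mice were injected once into the peritoneum with paraquat (30 mg/kg, in a volume of 200 µl) and 9 with saline only, and the whole cerebellum was taken 6 h later. The saline groups are those whose titles do not name paraquat. RNA of 3 mice made 1 pool and each pool was put on 1 array, so each of the 6 groups has 3 arrays from separate mice, and every n below is 3 pools. In whole tissue, fewer cells of a type and less RNA per cell cannot be told apart.

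Apod, the check of the knock-out labels, lay between 8.22 and 8.50 on the log2 scale in knock-out saline arrays against 12.38 to 12.54 in wild-type saline arrays. Under paraquat it lay between 9.16 and 9.83 in knock-out against 12.53 to 12.76 in wild-type arrays. Within knock-out mice it was thus higher after paraquat, by 1.16 (SE 0.13, limma adjusted p = 3.2e-05), and highest on the second paraquat array. The mouse probe set lay between 12.25 and 12.35 in transgenic saline arrays, and whether it reads the human transgene was not tested. Markers of the tissue's main cells were present on every array: the summed level of 6 granule neuron markers ran from 14.06 to 14.42, and that of 5 Purkinje neuron markers from 14.99 to 15.34. The second knock-out paraquat array stood apart, with a median of 6.98 against 7.10 to 7.15 elsewhere. It was the lowest of the 18 arrays for 40 of the 63 members (63.5%) and for 50.5% of all genes tested. Among the transgenic arrays, signs of RNA or labelling quality differed by replicate number. On the third arrays the 3' probe set of pyruvate carboxylase exceeded the 5' one by 1.82 and 1.95 (saline and paraquat), against 2.25 to 3.16 on the others. On both transgenic arrays numbered 1 the Dap labelling control read 12.27 and 12.62, against 10.61 to 11.34 on the others. Values without the knock-out array, and without both transgenic arrays numbered 3, are given beside results that moved with them.

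The promoters of the members that heat shock factor is best known for, or that carry the results, come first. The 250 bases before the transcription start were read from RefSeq sequences (build GRCm38.p6), which held 60 of the 75 members. Cryab, Hspa8, Hsp90aa1 and St13 were among the 15 without one. The heat shock element was searched on both strands as 3 alternating arms of GAA and TTC, each 2 bases of any kind apart. It was found for 3 of the 60 members (5%), Hspd1, Hspe1 and Dnajb6, and for 139 of 27025 genes (0.514%). A shorter form, 1 GAA and 1 TTC arm in either order with 2 bases of any kind between them, was found for 15 of the 60 members (25%) and for 14.5% of all genes. Hspd1 and Hspe1, the mitochondrial chaperonin and its lid, are transcribed away from each other. Their windows, at chr1:55087933-55088182 on the minus strand and chr1:55087898-55088147 on the plus strand, share 215 bases and with them 1 element, in capitals, which is read from either side:
Hspd1: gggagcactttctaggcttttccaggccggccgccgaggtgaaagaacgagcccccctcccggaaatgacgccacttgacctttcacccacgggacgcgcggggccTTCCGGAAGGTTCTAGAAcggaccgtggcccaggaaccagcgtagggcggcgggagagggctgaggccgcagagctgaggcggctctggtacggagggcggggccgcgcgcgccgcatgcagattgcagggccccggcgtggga
Hspe1: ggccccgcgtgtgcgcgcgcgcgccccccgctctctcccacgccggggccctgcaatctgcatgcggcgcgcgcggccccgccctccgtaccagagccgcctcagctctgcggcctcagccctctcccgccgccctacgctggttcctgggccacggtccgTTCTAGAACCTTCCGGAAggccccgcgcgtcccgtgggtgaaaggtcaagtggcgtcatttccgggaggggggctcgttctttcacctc
Hspa1b, an inducible HSP70, at chr17:34959239-34959488 on the minus strand, and Dnajb4, a J protein that was low in transgenic mice, at chr3:152193846-152194095 on the minus strand, each hold 1 element of 2 arms, in capitals:
Hspa1b: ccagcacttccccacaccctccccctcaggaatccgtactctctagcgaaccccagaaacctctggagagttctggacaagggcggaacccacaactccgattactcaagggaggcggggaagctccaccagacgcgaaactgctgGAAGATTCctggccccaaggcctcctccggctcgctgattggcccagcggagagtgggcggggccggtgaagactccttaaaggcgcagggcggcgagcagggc
Dnajb4: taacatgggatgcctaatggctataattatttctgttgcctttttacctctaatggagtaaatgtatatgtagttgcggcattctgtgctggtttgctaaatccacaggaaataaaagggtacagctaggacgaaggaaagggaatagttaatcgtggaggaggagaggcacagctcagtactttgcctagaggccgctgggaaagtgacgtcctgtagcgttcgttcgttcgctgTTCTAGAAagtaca
Dnajb1, the J protein with the largest fall after paraquat, has 2 windows, and neither holds either form. The second, at chr8:83608298-83608547, lies after the start that the first precedes. The first is at chr8:83607925-83608174 on the plus strand:
Dnajb1: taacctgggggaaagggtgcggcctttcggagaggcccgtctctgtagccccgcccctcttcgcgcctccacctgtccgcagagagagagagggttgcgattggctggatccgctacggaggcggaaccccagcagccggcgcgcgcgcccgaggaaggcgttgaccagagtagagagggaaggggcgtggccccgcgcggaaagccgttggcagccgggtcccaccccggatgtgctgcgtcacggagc
The element of Hspd1 and Hspe1 spans 18 bases, 144 to 127 bases before the start of Hspd1 and 89 to 72 before that of Hspe1. In the Dnajb4 window shown the 2 arms lie 14 to 7 bases before the start, and in the Hspa1b window 104 to 97 bases before it. Dnajb4 and Hspd1 each have 2 windows, and those not shown hold neither form. The Hspa1a window differs from that of Hspa1b at 3 of 250 bases, and the transcripts are near-identical too, so the probe sets of this pair may share signal and their values are uncertain. A match describes the letters only and is not evidence of binding. A window without a match can miss an element that lies outside it or has a looser form.

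In wild-type cerebellum no heat shock protein or chaperone gene passed the test for paraquat at 6 h. Of the 63 members tested, 0 passed the threshold (limma, Benjamini-Hochberg adjusted p under 0.05), where 2% of all 8320 genes did. An unadjusted p under 0.05 was reached by 4 members (6.35%) and by 9.96% of all genes. No member reached a 2-fold change: the log2 fold changes ran from -0.38 (Dnajb1) to 0.31 (Hspb8). For 57 of the 63 the 95% interval lay within 1.5-fold either way, as it did for 88.75% of all genes tested. The members' median was 0.00 and that of all genes 0.02. Of 15 glucocorticoid-responsive genes listed beside the members, 14 rose, with a median of 1.35, where 1.53% of all genes rose. Fkbp5, an HSP90-bound immunophilin, rose by 2.50 (SE 0.24, limma adjusted p = 3.6e-06). This list was chosen with earlier results of these data known, so it is not an independent check of the treatment.

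The inducible HSP70 genes did not pass the test in any genotype. Hspa1b read 7.81, 8.04 and 8.06 in wild-type saline arrays and 7.86, 7.65 and 7.46 after paraquat, so that 1 paraquat array lay within the saline range. Its log2 fold change was -0.31 (SE 0.30, 95% interval -0.95 to 0.32, adjusted p = 0.93 by limma). Hspa1a read 6.99, 7.12 and 7.27 in saline and 7.10, 7.04 and 6.94 after paraquat, overlapping groups with a difference of -0.10 (SE 0.24). In knock-out arrays Hspa1b was 7.98, 8.35 and 8.60 in saline and 7.79, 7.14 and 7.91 after paraquat. All 3 paraquat values were below the saline values, but the difference of -0.69 (SE 0.30) had an adjusted p of 0.24. Without the second paraquat array it was -0.46 (SE 0.33, adjusted p = 0.68). In transgenic mice it spread widest, from 8.07 to 9.21 in saline and from 7.54 to 9.07 after paraquat. Its pooled SD within groups, 0.46, was at the 99.56th percentile of all genes tested, and that of Hspa1a was 0.36, where the median member had 0.156 and the median gene 0.159. Dnajc14 had 0.37. The limits on a change are therefore among the widest of all members for this pair and Dnajc14. Hspa2, best known from testis, had the most positive mean effect among the HSP70 genes, 0.05 (SE 0.09).

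Hspa8, the constitutive HSP70, was measured far more tightly in wild-type mice. It read 13.59, 13.56 and 13.57 in saline and 13.39, 13.35 and 13.41 after paraquat, without overlap, a difference of -0.19 (SE 0.11, adjusted p = 0.64). In knock-out mice, 13.53, 13.63 and 13.65 stood against 13.46, 13.18 and 13.60, and in transgenic mice 13.82, 13.78 and 13.62 against 13.61, 13.78 and 13.64. Both pairs of groups overlapped. The HSP110 exchange factor Hsph1, a classical heat shock gene, read 10.59, 10.70 and 10.65 in wild-type saline arrays and 10.41, 10.44 and 10.44 after paraquat, again without overlap (-0.22, SE 0.15, adjusted p = 0.79). Averaged over genotypes the differences were -0.15 (SE 0.06, adjusted p = 0.19) for Hspa8 and -0.22 (SE 0.09, adjusted p = 0.18) for Hsph1. Neither passed the test. Many members did not overlap in wild-type mice, and in both directions: Dnajb6, Dnajc10, Dnajc28 and Tcp1 lay higher after paraquat without overlap. The share of all genes without overlap is not given here, so lack of overlap sets no member apart. The other HSP110 genes, Hspa4 and Hspa4l, lay at -0.08 and -0.11 in wild-type mice. Hsp90aa1, the inducible cytosolic HSP90, differed by -0.12 (SE 0.14), and Stip1, the adaptor between HSP70 and HSP90, by -0.19 (SE 0.13, adjusted p = 0.80).

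Dnajb1 and Cryab were the members that fell after paraquat. Dnajb1 encodes the main stress-inducible J protein, which starts the ATPase cycle of HSP70. In wild-type mice it read 9.60, 9.90 and 9.86 in saline and 9.27, 9.58 and 9.36 after paraquat, and in knock-out mice 9.70, 10 and 9.78 against 9.21, 8.78 and 9.31. In both genotypes every paraquat array lay below every saline array. In transgenic mice the groups overlapped, with 9.85, 9.52 and 9.32 in saline and 9.57, 9.62 and 9.26 after paraquat. Averaged over the 3 genotypes Dnajb1 fell by 0.40 (SE 0.09, 95% interval -0.58 to -0.21, limma adjusted p = 0.012), and its linear value fell by 24%. In knock-out mice alone it fell by 0.73 (SE 0.16, adjusted p = 0.016). In wild-type mice the difference was -0.38 (SE 0.16, adjusted p = 0.36) and in transgenic mice -0.08 (SE 0.16, adjusted p = 1). The second probe set of Dnajb1 gave -0.30 on average.

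Cryab, the small heat shock protein alpha B-crystallin, was low after paraquat on all arrays of a genotype. In wild-type mice it read 11.17, 11.17 and 11.31 in saline and 10.73, 10.85 and 11.02 after paraquat. The knock-out values were 11.08, 11.25 and 11.25 against 10.85, 10.35 and 10.80, and the transgenic values 11.32, 11.25 and 11.34 against 11, 11.09 and 11.24. In all 3 genotypes the paraquat arrays lay below the saline arrays without overlap. On average Cryab fell by 0.36 (SE 0.07, 95% interval -0.50 to -0.21, limma adjusted p = 0.0043), and in knock-out mice by 0.53 (SE 0.12, adjusted p = 0.025). The difference was -0.35 (SE 0.12, adjusted p = 0.23) in wild-type and -0.19 (SE 0.12, adjusted p = 1) in transgenic mice. A second probe set of similar brightness gave -0.35 on average, and another, which was too dim for the filter, 0.02.

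**Figure D1:**
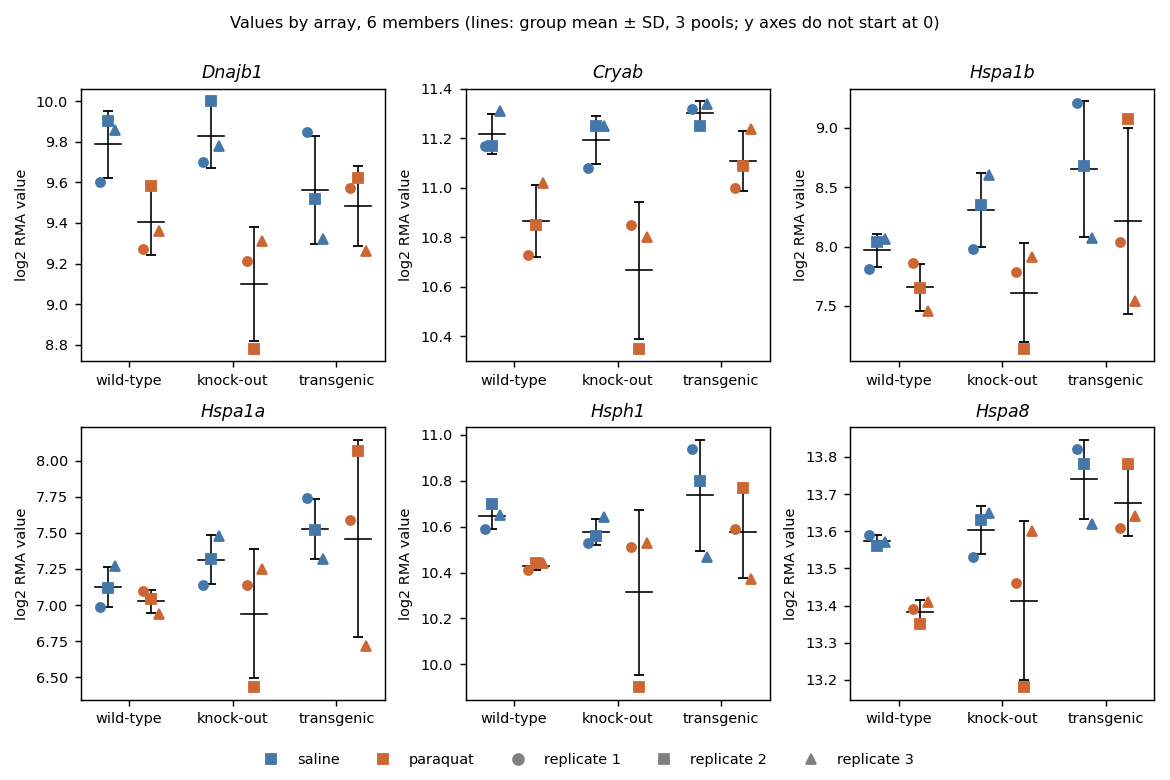
Log2 value of 6 members on each of the 18 arrays, by genotype (x axis) and treatment (blue, saline; orange, paraquat), with replicate numbers as symbols and lines for the mean and SD of 3 pools; the y axes do not start at 0. Cryab is lower after paraquat in every genotype without overlap, Dnajb1 in wild-type and knock-out mice, while Hspa1b and Hspa1a spread most in the transgenic groups.

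Some oligodendrocyte markers were lower after paraquat too. The summed level of 8 myelin genes was 15.43 to 15.48 in wild-type saline and 15.33 to 15.47 in wild-type paraquat arrays, and 15.48 to 15.52 against 15.14 to 15.46 in knock-out mice. In transgenic mice it was 15.41 to 15.68 against 15.38 to 15.57. The groups overlapped in wild-type and transgenic mice but not in knock-out mice. On average over genotypes 2 of the 8 fell, with a median of -0.15. The astrocyte and Bergmann glia list had 0 of 7 called and a median of -0.01. Endothelial markers fell too, 3 of 5 with a median of -0.32. Of the 6 microglial markers 2 fell on average, as did 1 of the 6 granule neuron markers. The part of these cells in the result was not tested.

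The 2 calls in knock-out mice depended on single arrays. Dnajb1 and Cryab made 2 of 63 members called in the knock-out comparison, beside 2.26% of all genes. With the second knock-out paraquat array left out, Dnajb1 was at -0.57 (SE 0.15, adjusted p = 0.068 by limma) and Cryab at -0.37 (SE 0.10, adjusted p = 0.072), and 0 members were called. Leaving out the second knock-out saline array also left 0, and without replicate 1 or replicate 3 of that group 1 was called. With the mean of all probe sets Cryab lost its call. Averaged over genotypes, where 2 members and 4.89% of all genes were called, both genes kept their calls in all 30 alternative analyses, with adjusted p-values of at most 0.035 for Dnajb1 and 0.023 for Cryab. Without the same array, Cryab (adjusted p = 0.033) and Hspb8 (adjusted p = 0.019) were also called in wild-type mice. Their fold changes in wild-type mice stayed at -0.35 and 0.31, with SEs of 0.09 and 0.07 in place of 0.12 and 0.11.

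The other J proteins varied less. Dnajb2, a J protein enriched in neurons, had the next smallest p on average, at -0.28 (SE 0.09, adjusted p = 0.097), and Dnajb4 and Dnajb2 lay at -0.41 and -0.42 in knock-out mice (adjusted p = 0.12 and 0.18). With the second knock-out paraquat array left out these were -0.26 and -0.15 (adjusted p = 0.42 and 0.66), and the average of Dnajb2 was -0.19 (adjusted p = 0.061). Dnaja1, the main class A partner of HSP70, differed by -0.18 (SE 0.08, adjusted p = 0.26) on average and Dnaja2 by -0.02. Of class C, which is defined by the J domain alone, 0 of 13 tested genes were called under paraquat in any genotype or on average, and the mean effects ran from -0.27 (Dnajc14) to 0.07 (Dnajc9). Without that array Dnajc14 was at -0.14. Dnajc5, the cysteine string protein of synaptic vesicles, stood at -0.06 (SE 0.06). Dnajb6, which keeps polyglutamine proteins from aggregating and holds the full heat shock element, stood at 0.04 (SE 0.06).

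Hspb8, a small heat shock protein that works with Bag3 in the removal of aggregates by autophagy, was the most positive member in wild-type mice. It read 8.47, 8.48 and 8.63 in saline and 8.85, 8.87 and 8.79 after paraquat, without overlap, a difference of 0.31 (SE 0.11, adjusted p = 0.22 by limma). In knock-out and transgenic mice the differences were -0.04 and 0.03. Its partner Bag3 differed by -0.04 in wild-type mice, from 8.12, 8.20 and 8.17 to 8.11, 8.08 and 8.18. Hspb1, a heat-inducible small heat shock protein, stood at -0.14 (SE 0.08, adjusted p = 0.41) on average and Hspb11 at 0.11 (SE 0.09). Among the proteins that bind HSP70, Bag2, an inhibitor of the ubiquitin ligase CHIP, differed by -0.18 (SE 0.10), Bag1 by -0.01 (SE 0.07) and St13 by -0.17 (SE 0.08, adjusted p = 0.26).

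Neither TRiC nor the mitochondrial chaperones had a called member under paraquat. The mean effects of the 8 tested TRiC subunits ran from -0.11 (Cct4) to 0.05 (Tcp1), with 0 called. Tcp1 read 11.38, 11.34 and 11.37 in wild-type saline and 11.55, 11.39 and 11.44 after paraquat. The pair that shares its promoter did not pass the test either. Hspd1 read 11, 10.98 and 10.89 in saline and 10.73, 10.88 and 10.83 after paraquat in wild-type mice, just without overlap, and its mean effect was -0.16 (SE 0.08, adjusted p = 0.33). Hspe1 read 10.59, 10.58 and 10.55 against 10.58, 10.57 and 10.49, which overlapped, with a mean effect of -0.05 (SE 0.06). Hspa9, the mitochondrial HSP70, was at 0.01 (SE 0.07) and Dnajc11 at 0.11 (SE 0.06). Dnajc30, a small mitochondrial J protein, differed by 0.26 (SE 0.12, adjusted p = 0.44) and Dnajc11 by 0.20 (adjusted p = 0.60) in wild-type mice. Of the ER members, Dnajc18 stood at 0.23 (SE 0.08, adjusted p = 0.11) and Dnajc1 at -0.08 (SE 0.13).

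**Figure D2:**
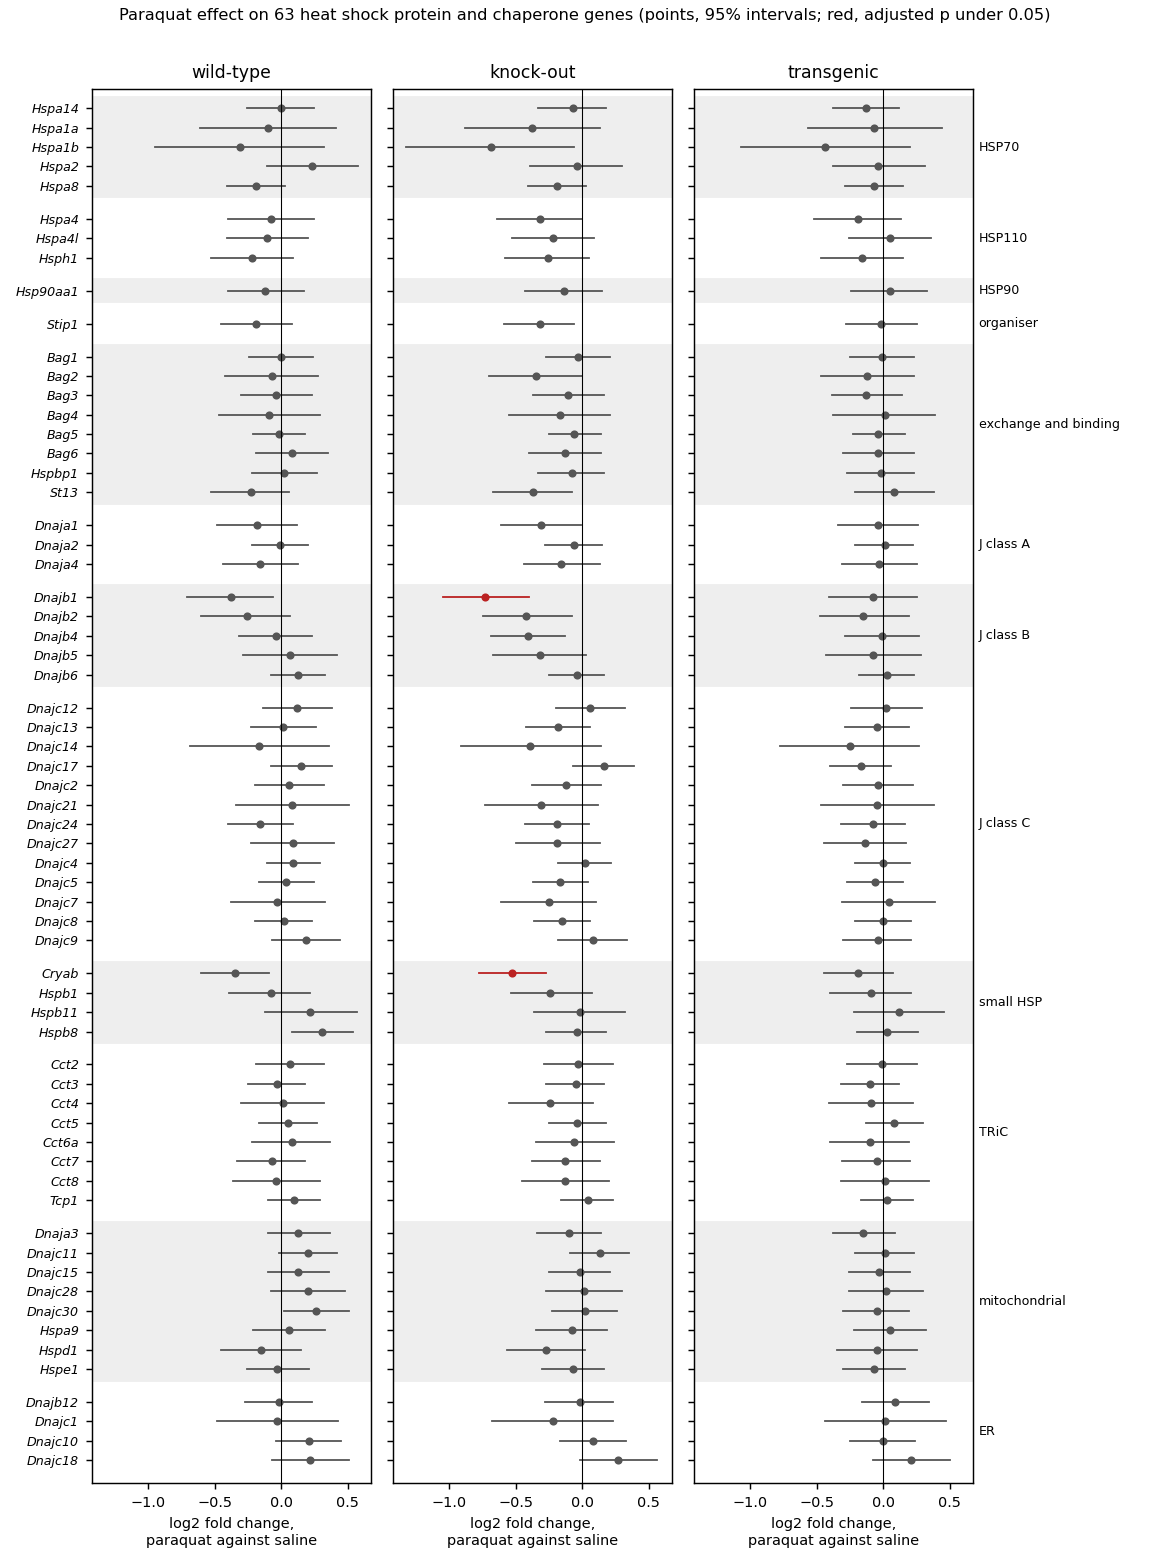
Log2 fold change of paraquat against saline (x axis) for the 63 tested members, grouped by role, in each genotype; points are limma estimates, lines 95% intervals, and red marks an adjusted p under 0.05. Only Dnajb1 (-0.73) and Cryab (-0.53) in knock-out mice are red, and the intervals of Hspa1a, Hspa1b and Dnajc14 are wide.

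In transgenic mice 0 of 63 members passed the test for paraquat, where 0% of all 8320 genes did. An unadjusted p under 0.05 by limma was reached by 0 members and by 1.42% of all genes. The values ran from -0.44 (Hspa1b) to 0.21 (Dnajc18), and 61 of the 63 intervals lay within 1.5-fold. Those with the smallest p after Cryab were Dnajc17 (-0.17), Dnajc18, Hspa1b and Dnaja3 (-0.15), each with an adjusted p of 1. The sign of the Hspa1b value depended on the weighting: with array weights it was 0.27. The difference of the paraquat effect between transgenic and wild-type mice was called for 0 members and 0.18% of all genes. The largest of these differences belonged to Dnajc17 and St13, -0.32 and 0.32 (SE 0.16 and 0.20). Between knock-out and wild-type mice 0 members and 0% of all genes were called. An unadjusted p under 0.05 was reached by 1.78% of all genes and 1 member, Hspb8, with a difference of -0.35 (SE 0.15, adjusted p = 0.87). Dnajb1, at -0.34 (SE 0.22, 95% interval -0.80 to 0.12), and Dnajb4 and Dnajb5, at -0.37 and -0.39, followed. With the second knock-out paraquat array left out these differences were -0.21 for Hspb8, -0.18 for Dnajb1, -0.22 for Dnajb4 and -0.08 for Dnajb5, each with an adjusted p of 1. The falls of Dnajb1 and Cryab in knock-out mice are thus not shown to differ from the values in wild-type mice.

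Genes outside the rule gave these values. Of 25 HSP90 co-chaperones and prefoldin subunits tested of 29 listed, 0 were called under paraquat in any genotype or on average, and the mean effects had a median of -0.03. Of the 16 ER chaperones and partners, 0 were called in any genotype alone, and 6 fell on average, with a median of -0.24. They include Hspa5, the ER counterpart of HSP70, by 0.44 (SE 0.10, adjusted p = 0.012), Manf, a secreted stress protein, by 0.44 (adjusted p = 0.011), Pdia6, a disulfide isomerase, by 0.29, and Creld2 by 0.39. Over all genes tested the median on average was -0.03 and over the members -0.06.

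No member passed the test between knock-out and wild-type mice. Under saline 0 of 63 members were called, beside 0.024% of all genes. An unadjusted p under 0.05 by limma was reached by 1.55% of all genes and by 1 member. This was St13, the HSP70-interacting protein Hip, which read 8.44, 8.49 and 8.45 in knock-out and 8.95, 8.83 and 8.85 in wild-type arrays, without overlap. The difference was -0.42 (SE 0.14, adjusted p = 1). Under paraquat 0 members were called, beside 0.012% of all genes. An unadjusted p under 0.05 was reached by 6 members (9.52%) and by 13.19% of all genes. St13 led again, with 8.40, 7.76 and 8.10 in knock-out and 8.73, 8.62 and 8.58 in wild-type arrays (-0.56, SE 0.14, adjusted p = 0.22). It passed the test for saline in a fit of only the groups compared and with array weights (lowest adjusted p = 0.00089), and for paraquat without the first knock-out paraquat array (adjusted p = 0.048). Over the 30 alternatives the adjusted p reached 1 for saline and 0.84 for paraquat.

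The next smallest p-values under saline belonged to Bag1 (-0.17), Dnajb4 (0.17), Dnajc13 (0.14) and Hspa1b (0.34), each with an adjusted p of 1. Under paraquat they belonged to Hspb8 (-0.32), Dnajc30 (-0.27), Dnajc21 (-0.47) and Dnajc2 (-0.28), each with an adjusted p of 0.37. These values rest in part on the second knock-out paraquat array, which read 7.13 for Dnajc21 against 8.13 and 8.10 on the other two. Without it Hspb8 was at -0.17, Dnajc30 at -0.17, Dnajc21 at -0.14 and Dnajc2 at -0.15, each with an adjusted p of 1, and St13 was at -0.40 (adjusted p = 0.84). Under paraquat the median of the members was -0.14 and that of all genes -0.12. Without the array that stands apart they were 0.00 and -0.01. Of the HSP90 co-chaperones and prefoldin and of the ER chaperones, 0 were called under either treatment.

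In transgenic mice members were called about as often as other genes. Most of those called were J proteins lower than in wild-type, but J proteins also fill much of the set. Of the tested members, 3, 5 and 13 were J proteins of classes A, B and C, beside those of mitochondria and the ER. Under saline 3 of 63 members (4.76%) fell below wild-type and 0 rose, where 6.36% of all genes were called and 4.38% fell. Under paraquat 10 fell and 1 rose, 17.46% of the members beside 19% of all genes, of which 14.3% fell. These comparisons share no arrays with each other, but each uses the wild-type arrays of a knock-out comparison.

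Dnajb4, a class B J protein of the cytosol, and Dnajc7, which binds HSP70 and HSP90 through tetratricopeptide repeats, were low under both treatments. Dnajb4 read 9.69, 9.34 and 9.50 in transgenic saline arrays against 10.17, 10.28 and 10.14 in wild-type ones, and 9.28, 9.69 and 9.53 against 10.01, 10.32 and 10.12 under paraquat. Neither pair of groups overlapped. It fell by 0.68 (SE 0.13, limma adjusted p = 0.0071) and by 0.65 (SE 0.13, adjusted p = 0.0028), and it was called in all 30 alternatives of both comparisons. In knock-out saline arrays it stood at 10.32, 10.41 and 10.36. The second probe set of Dnajb4 gave smaller differences, -0.43 and -0.22.

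Dnajc7 read 10.03, 9.68 and 10.25 in transgenic saline arrays against 10.74, 10.81 and 10.90 in wild-type ones. Under paraquat it read 9.85, 9.73 and 10.50 against 10.61, 10.90 and 10.87. All transgenic values lay below all wild-type values, and within the transgenic mice the third array was the highest under both treatments. It fell by 0.83 (SE 0.17, adjusted p = 0.0083) and by 0.77 (SE 0.17, adjusted p = 0.0044). Without both arrays numbered 3 the values were -0.96 and -1.0. The saline call was lost without the second transgenic saline array and without both transgenic arrays numbered 2, at an adjusted p of up to 0.06. Dnajc7 has 1 probe set, so no second measurement stands beside it.

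St13 also fell under saline. It read 8.58, 8.27 and 8.13 in transgenic and 8.95, 8.83 and 8.85 in wild-type arrays (-0.55, SE 0.14, limma adjusted p = 0.024). Under paraquat the groups overlapped, with 8.37, 8.27 and 8.60 against 8.73, 8.62 and 8.58 (-0.23, SE 0.14, adjusted p = 0.25). The saline call was lost in 8 of 30 alternatives, among them each fit without 1 wild-type saline array, without the second or the third transgenic saline array and with the mean of all probe sets, with an adjusted p of up to 0.12. Without both transgenic arrays numbered 3 it was at -0.45 (adjusted p = 0.091).

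Under paraquat Hspb8 was at 8.40, 8.42 and 8.40 in transgenic and 8.85, 8.87 and 8.79 in wild-type arrays, and it fell by 0.43 (SE 0.11, limma adjusted p = 0.0097). Its other probe sets gave -0.18 and 0.07, and the mean of all of them ended the call, at -0.18 (adjusted p = 0.24). Its transgenic saline values, 8.34, 8.38 and 8.41, were close to the paraquat ones. In wild-type mice the paraquat arrays were the higher ones.

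Of class C, 6 of the 13 tested J proteins fell in transgenic mice under paraquat, and 0 rose, where 14.3% of all genes fell and 4.64% rose. Beside Dnajc7 they were Dnajc2, a ribosome-associated chaperone, Dnajc9, a histone chaperone, Dnajc13, which acts on endosomes, Dnajc17 and Dnajc21, which takes part in ribosome assembly. Dnajc2 read 7.47, 7.41 and 7.38 in transgenic and 7.97, 7.92 and 7.83 in wild-type arrays (-0.48, SE 0.12, adjusted p = 0.011). Dnajc9 read 8.55, 8.61 and 8.50 against 9.15, 8.96 and 8.96 (-0.47, SE 0.12, adjusted p = 0.012). The groups did not overlap for any of the 6, but these were picked by the test on the same arrays, so this adds no support. The falls of Dnajc13, Dnajc17 and Dnajc21 were 0.40, 0.34 and 0.61 (adjusted p = 0.020, 0.037 and 0.042). Dnajc17 lay at 6.43, 6.41 and 6.19, near the filter, which ran from 6.3 to 6.4. Its second probe set had the opposite sign, 0.19, and of the 3 others of Dnajc2 only 1 shared the sign, the values being 0.00, -0.06 and 0.01.

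Dnajc10, an ER reductase of disulfide bonds, fell by 0.43 (SE 0.12, adjusted p = 0.017), and both of its other probe sets gave like values, -0.45 and -0.38. Hspa4, an HSP110 exchange factor, fell by 0.47 (SE 0.15, adjusted p = 0.040), with other probe sets at -0.39 and 0.49. Dnaja4, a class A J protein, was the member that rose, by 0.43 (SE 0.14, adjusted p = 0.032). It read 8.76, 8.78 and 8.81 in transgenic against 8.25, 8.36 and 8.44 in wild-type arrays, and 8.68, 8.76 and 8.99 against 8.50, 8.48 and 8.53 under saline (0.30, adjusted p = 0.18). Its other probe sets gave 0.55 and -0.08. Without both transgenic arrays numbered 3, the paraquat values of Dnajc17 (-0.26), Dnajc13 (-0.38), Dnajc21 (-0.61), Hspa4 (-0.49) and Dnaja4 (0.42) no longer passed, at adjusted p-values of 0.14, 0.057, 0.072, 0.052 and 0.062. Those of Dnajb4 (-0.66), Dnajc7, Hspb8 (-0.43), Dnajc2 (-0.46), Dnajc9 (-0.45) and Dnajc10 (-0.40) did pass. The losses were not particular to the third arrays. Dnajc21, Hspa4 and Dnaja4 also lost their calls without both arrays numbered 1 and without both numbered 2, and Dnajc13 without both numbered 1. Hspa4 and Dnajc21 were called in 15 of 30 alternatives, Dnajc17 in 20 of 28, Dnaja4 in 21, Dnajc13 in 24, Dnajc10 in 27 and Dnajc9 in 29 of 30. With quantile normalisation repeated over all arrays 7 members rose and 10 fell. The 6 added to the rise were Bag1, Bag3, Cryab, Dnajb2, Hspa8 and Stip1. The share of all genes called with that normalisation is not given here.

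**Figure D3:**
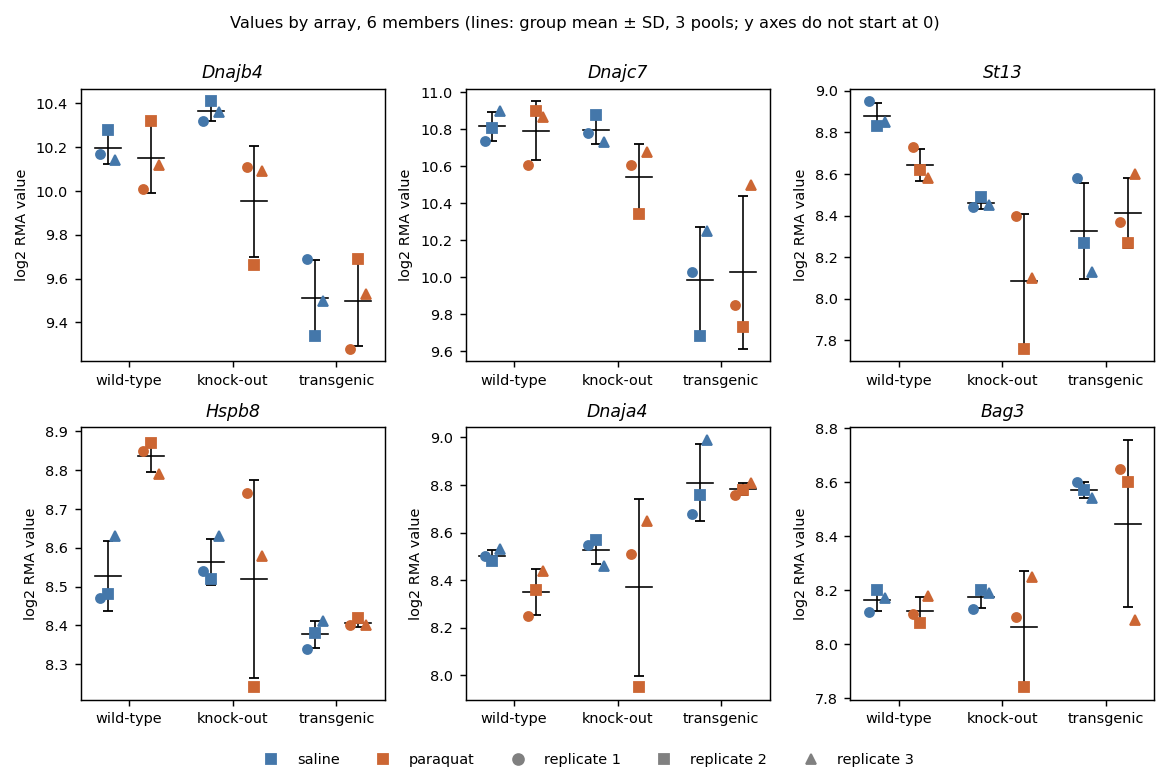
Log2 value of 6 members on each array, by genotype (x axis) and treatment (blue, saline; orange, paraquat), with replicate numbers as symbols and lines for the mean and SD of 3 pools; the y axes do not start at 0. Dnajb4 and Dnajc7 are lower on all 6 transgenic arrays than on all 6 wild-type arrays, and St13 is lower in knock-out than in wild-type mice under both treatments.

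Bag3, the exchange factor that works with Hspb8, was higher in transgenic saline arrays, with 8.60, 8.57 and 8.54 against 8.12, 8.20 and 8.17. The difference of 0.41 (SE 0.13) missed the threshold at an adjusted p of 0.057, and it passed in 11 of 30 alternatives. Under paraquat the third transgenic array, 8.09, lay apart from the other two, 8.65 and 8.60 (0.32, SE 0.13, adjusted p = 0.078). Hspa1b and Hspa1a also varied among the transgenic arrays. Hspa1b read 9.21, 8.68 and 8.07 in transgenic saline arrays, all above the wild-type range of 7.81 to 8.06, and 8.04, 9.07 and 7.54 under paraquat, where the second array stood highest and the third lowest. The differences were 0.68 (SE 0.30, adjusted p = 0.17) and 0.56 (SE 0.30, adjusted p = 0.20). Without both transgenic arrays numbered 3, a choice made after the data were seen, Hspa1b was at 0.98 (adjusted p = 0.043) under saline and 0.89 (adjusted p = 0.026) under paraquat, Hspa1a at 0.81 (adjusted p = 0.0092) under paraquat, and Bag3 at 0.43 and 0.50 (adjusted p = 0.043 and 0.0068). For these genes the third arrays held the lowest transgenic values under both treatments, so leaving them out raises the differences by construction. Values without the other same-numbered pairs are not given for these genes. The third arrays are those with the low 3' to 5' difference of pyruvate carboxylase, and the part of RNA quality in the values above was not tested. Under saline, Dnajc2 (-0.38, adjusted p = 0.070) had the next smallest p.

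The transgenic saline arrays also held less signal from choroid plexus. The summed level of 4 of its markers found on the array, 3 of them above the filter, was 13.61, 13.76 and 12.01 in transgenic saline against 14.46 to 14.50 in wild-type saline arrays. Under paraquat it was 13.47 to 14.21 against 14.40 to 14.47. Of the meningeal markers 3 of 4 fell in transgenic mice under each treatment, and of the astrocyte markers 2 of 7 rose under saline and 3 of 7 under paraquat. The summed Purkinje neuron markers were lower in transgenic than in wild-type arrays without overlap, at 14.99 to 15.15 against 15.17 to 15.25 under saline and 15 to 15.13 against 15.15 to 15.22 under paraquat. Of the 5 tested, 0 were called under saline and 1 fell under paraquat, with medians of -0.25 and -0.23. Of the 6 microglial markers 0 were called under saline and 2 fell under paraquat, and of the 5 endothelial ones 1 fell under saline, and 2 rose and 1 fell under paraquat. Granule neuron markers had 0 of 6 called under both. Oligodendrocyte markers had 0 of 8 called under saline and 1 risen under paraquat. The 1 erythrocyte marker tested was not called in either. The part of these cells in the differences of the J proteins was not tested.

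Beyond the rule, 0 of 25 HSP90 co-chaperones and prefoldin subunits were called in transgenic mice under saline, and 3 fell under paraquat: Vbp1, a prefoldin subunit, by 0.46, Ruvbl1, an ATPase of chaperone complexes, by 0.38 and Ttc4, an HSP90 co-chaperone, by 0.38. Of the 16 ER chaperones and partners 0 were called under saline. Under paraquat the lectin chaperone Calr rose by 0.69 (SE 0.16, adjusted p = 0.0059) and Herpud1, a part of ER-associated degradation, fell by 0.31. Of the glucocorticoid-responsive genes 12 of 15 were lower in transgenic than in wild-type mice under paraquat, where 14.3% of all genes fell. That list was chosen with earlier results of these data known. The members' medians against wild-type were -0.09 under saline and -0.14 under paraquat, where those of all genes were -0.01 and -0.06.

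**Figure D4:**
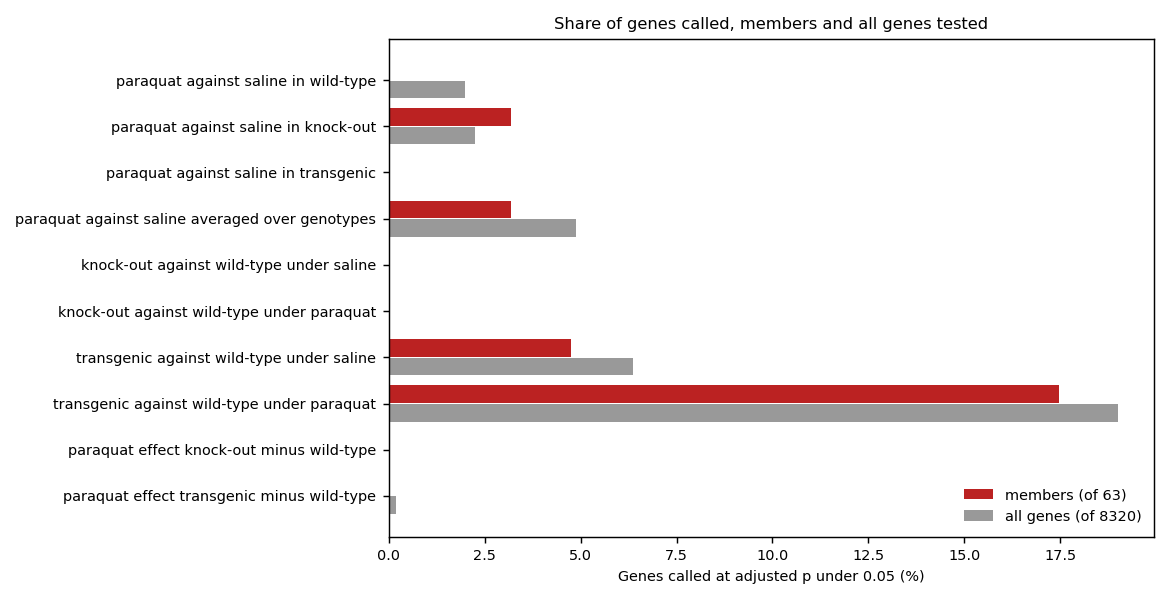
Share of genes called at a limma adjusted p under 0.05 (x axis, percent) in each of the 10 comparisons, for the 63 members (red) and all 8320 genes tested (grey). The members reach 17.46% in transgenic against wild-type under paraquat, where all genes reach 19%.

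Of the 12 members below the filter, the values ran from 3.51 to 7.22. They were Cct6b, Dnajb13, Dnajb3, Dnajb7, Dnajb8, Dnajc5b, Hsf2, Hspa12b, Hspa1l, Hspb2, Hspb3 and Hspb7, several of them known from testis or muscle. On the arrays other than the second knock-out paraquat array they reached 6.31 at most, and 7 of the 12 had their highest value on that array. Hsf2, a heat shock factor, read 3.51 to 3.99 over all arrays. They were not tested.

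**Figure D5:**
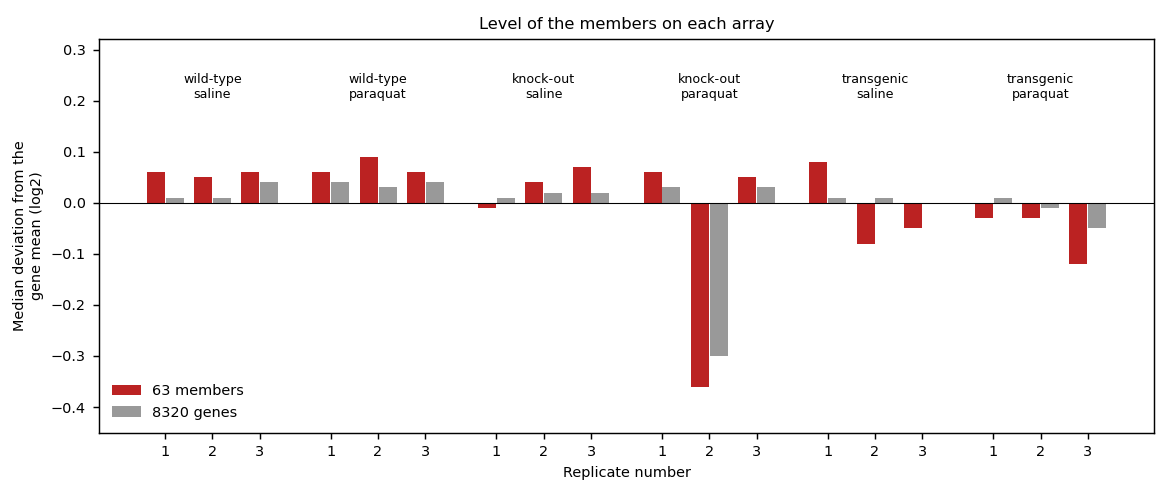
Median deviation from each gene's mean over the 18 arrays (y axis, log2), for the 63 members (red) and all 8320 genes tested (grey), by group and replicate number (x axis). The second knock-out paraquat array is at -0.36 for the members and -0.30 for all genes, and every other array lies between -0.12 and 0.09.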

How the data were processed

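The authors deposited 1 log2 value for each probe set on each array. They came from RMA, which corrects background, normalises by quantiles and summarises probes by median polish, per the submitters' processing notes, which give no version. Scanner files were not used here, so scan batches were not examined, and the number of arrays limits the precision. Of 22690 probe sets, 20380 had 1 symbol in the platform annotation, which can be old. Those with several symbols or none were left out. Each gene was read from its probe set of highest mean, and levels of different genes are not compared. Genes at or above their array's 40th percentile on 3 or more arrays were tested.

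The 18 arrays were fitted with 6 group means in limma 3.58.1 (R 4.3.3, lmFit and eBayes), with 12 residual degrees of freedom, and the script was tested on simulated data. The threshold for a call was an adjusted p (Benjamini-Hochberg) under 0.05 over all 8320 genes in its comparison, two-sided. All fold changes are differences of log2 values unless given in percent. A permutation test of 3 against 3 arrays cannot go below 0.1 and was not used. The members, lists and rules were chosen with earlier results of these data known.

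The genes named are those called, the 5 with the smallest p where fewer than 5 were called, 20 textbook members, and in each role the largest and smallest mean paraquat effect. Lists are described by counts and medians. Summed marker levels are log2 of the sum of linear values. Same-numbered transgenic saline and paraquat arrays deviated together (correlations of 0.16, 0.13 and 0.42), and no label gives the reason.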

Additional observations from a re-analysis of the deposited data

How the results depend on the processing

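Counts of called members over 30 alternatives, of 63 members unless the filter changes, were as follows. In wild-type mice the paraquat count of 0 became 2 with quantile normalisation, 4 with only the groups compared and 7 with array weights, and ran from 0 to 2 with single arrays left out. In knock-out mice 2 became 1 with the mean of all probe sets, 0 with only the groups compared and 13 with array weights, and ran from 0 to 4. Averaged over genotypes 2 became 15 with array weights and ran from 2 to 4. In transgenic mice it was 0 under all 30. Between knock-out and wild-type mice 0 became 1 under saline with only the groups compared and with array weights. Under paraquat it ran from 0 to 1 with single arrays left out, the 1 coming without the first knock-out paraquat array. Between transgenic and wild-type mice under saline 3 became 7 with quantile normalisation, 6 with array medians subtracted, 6 with the mean of all probe sets, 5 with only the groups compared and 35 with array weights, and ran from 1 (without the second transgenic saline array) to 8 (without the first, or without the second knock-out paraquat array). Leaving out both transgenic arrays of a number, chosen after seeing the data, gave 9 for number 1, 1 for number 2 and 4 for number 3 (under paraquat 9, 8 and 9). Under paraquat 11 became 17 with quantile normalisation and 39 with array weights, and ran from 5 (without the first or the second wild-type paraquat array) to 22 (without the second knock-out paraquat array). Without the first or second transgenic or the third wild-type paraquat array it was 7. The difference of the paraquat effect, transgenic minus wild-type, became 2 with array weights. The share of all genes called under each alternative is not given here. These counts therefore describe the processing and are no result about the members. The causes of the shifts were not tested.

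Of 18 called gene results 6 were called in every alternative. The 1 value that reversed was Hspa1b under paraquat in transgenic mice, -0.44 and, with array weights, 0.27. With the replicate block the counts were 0, 2 and 0 for paraquat in wild-type, knock-out and transgenic mice, 2 on average, 3 and 12 for transgenic against wild-type under saline and paraquat, and 0 elsewhere, and it changed no other count. The labels share only the numbers: of 45 same-number correlations 17 were over 0.1, and the range was -0.34 to 0.42.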
